A study of Mus musculus with 18 samples.

Results

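The dual-specificity MAP kinase phosphatases switch MAP kinases off. Of this family, 10 genes (Dusp1, Dusp2, Dusp3, Dusp4, Dusp5, Dusp6, Dusp7, Dusp10, Dusp14 and Dusp16) were followed in mouse macrophages during the first 30 min after LPS. They were found by gene symbol in the annotation of the array, which assigned them 16 of its 45101 probe sets. A probe set is a group of short probes read as 1 signal. Of these, 14 probe sets of 9 genes were bright enough to be tested, which meant a signal at or above the array's median on at least 3 of the 18 arrays. Dusp1 rose with time under both treatments. In the fit that compared times within an experiment, Dusp5 rose with LPS and averaged over both treatments. Dusp2 was called in that fit only averaged over both treatments. Each of these Dusp5 and Dusp2 calls was lost when some single experiments were left out. No member differed between LPS and LPS plus IL-10 by the test.

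All cells were bone marrow-derived macrophages of mice deficient in IL-10 (genotype IL-10-/-). They had been grown for 7 days with CSF-1 from L-cell conditioned medium and were then treated without CSF-1. The groups were LPS at 100 ng/ml, the bacterial ligand of TLR4, for 10, 20 or 30 min, and LPS at 100 ng/ml plus IL-10 at 10 ng/ml, an inhibitory cytokine that acts through STAT3, for the same times. LPS plus IL-10 is also called the combination. Each of the 6 groups had 3 arrays, 1 from each of 3 independent experiments, which were performed in sequence with age- and sex-matched mice. Untreated cells were not analysed here, so each change is counted from 10 min of LPS and not from rest. The labels name neither the strain nor the number of mice.

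Signals are on a linear scale with an arbitrary unit, and every array had a trimmed mean of 500. Median signals were 75.6 to 120.9 per array. The arrays of LPS at 20 min from experiments 2 and 3 stood apart, with lower quartiles of 38.6 and 34.0 against 21.8 to 31.0 on the other arrays, so values at 20 min of LPS are given with and without both. Without them, LPS at 20 min is the array of experiment 1 alone. Set against arrays of all 3 experiments, it then also carries the differences between experiments. All 12 macrophage markers were measurable, with Csf1r at 19735.9 to 43020.9 and Adgre1 at 9900.1 to 26042.2, but Cd163 reached only 176.1. The summed signal of 6 stromal markers was 1646.7 to 3665.9, led by Col1a2 at 747 to 1451.4. That of 6 T cell markers was 105.7 to 462, with Cd8a at 10.7 to 185.6 and Cd3d at 3.4 to 31.6, and that of 4 B cell markers 204.4 to 548.7. The summed signal of 7 granulocyte markers was 5639.6 to 14020, and its ranges overlapped between all 6 groups. It was led by S100a8 at 2756.9 to 7700.6 and S100a9 at 1303.3 to 4622.4. Ngp reached 1354.4, Mpo 423.8, Ltf 326.8, Camp 291 and Elane 223.5. The part of other cells in the results was not tested. In whole cultures fewer cells expressing a gene and less RNA per cell cannot be told apart. Il10 gave signals of 602.1 to 3209.2. The labels do not tell whether its probes lie in the deleted part, and the signal therefore does not check the genotype.

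As background, LPS activates the MAP kinases ERK, JNK and p38, each by phosphorylation on a threonine and a tyrosine of its activation loop. Dual-specificity phosphatases remove both phosphates, and several of their genes are themselves switched on by the pathway they restrain, which makes them a negative feedback. Dusp1, Dusp2, Dusp4 and Dusp5 encode inducible nuclear enzymes, Dusp6 and Dusp7 cytoplasmic enzymes directed at ERK, and Dusp10 and Dusp16 enzymes directed mainly at JNK and p38. Dusp3 and Dusp14 encode small atypical members without the kinase-binding domain of the others. In macrophages Dusp1 is best known for limiting p38 activity and cytokine production after LPS.

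The sequences upstream of the 3 members that rose are shown because they differ in the motifs they hold. They come from RefSeq on build GRCm38.p6, in which 9 of the 10 genes had a window, and each is the 250 bases before a transcript start that RefSeq gives for the gene, on the gene's strand from 5′ to 3′. For 5 genes, the 3 shown among them, that start is the outermost one of the gene. For Dusp7, Dusp14, Dusp3 and Dusp16 it lies 72, 899, 2222 and 14435 bases inside the gene, so their windows lie partly or wholly within it. The Dusp1 window is chr17:26508473-26508722 on the minus strand. The Dusp5 window is chr19:53528895-53529144 and the Dusp2 window chr2:127335909-127336158, both on the plus strand. Capitals mark the cyclic AMP response element TGACGTCA and its 5-base core TGACG on either strand, the E-box CACGTG, and the serum response element.
Dusp1: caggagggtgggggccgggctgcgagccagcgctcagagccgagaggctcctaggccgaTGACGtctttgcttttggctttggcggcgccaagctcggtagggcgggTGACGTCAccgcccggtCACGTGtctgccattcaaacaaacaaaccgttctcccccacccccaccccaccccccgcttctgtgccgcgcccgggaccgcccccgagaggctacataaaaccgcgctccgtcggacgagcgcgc
Dusp5: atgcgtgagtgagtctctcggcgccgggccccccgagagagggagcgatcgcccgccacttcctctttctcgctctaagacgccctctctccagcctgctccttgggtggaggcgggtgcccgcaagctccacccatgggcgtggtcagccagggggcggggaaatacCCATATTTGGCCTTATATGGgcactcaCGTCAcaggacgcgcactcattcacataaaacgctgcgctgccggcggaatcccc
Dusp2: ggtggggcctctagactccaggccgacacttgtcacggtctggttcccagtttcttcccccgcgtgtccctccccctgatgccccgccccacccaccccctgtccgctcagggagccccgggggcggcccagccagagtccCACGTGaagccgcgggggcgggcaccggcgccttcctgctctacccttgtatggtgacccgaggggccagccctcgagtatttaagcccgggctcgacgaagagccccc

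The Dusp1 window held a full cyclic AMP response element 136 bases before the start, a further TGACG core 187 bases before it, and an E-box 121 bases before it. The full element itself holds a TGACG core on each strand, so the window counted 3 cores. The Dusp5 window held 2 adjacent matches to the serum response element, 73 and 63 bases before the start, and a TGACG core 51 bases before it. The Dusp2 window held an E-box 104 bases before the start and none of the other marked motifs. Among all 32851 windows of 250 bases, 1.55% held TGACGTCA, 17.8% TGACG, 6.02% CACGTG and 1.47% a serum response element. Of the other motifs, also searched on both strands, 4 matched in none of the 9 windows. These were the AP-1 site TGAGTCA, held by 4.46% of all windows, the TATA box TATAAA, held by 12.4%, the ETS site CCGGAAGT, held by 2.88%, and the NF-kB consensus, held by 3.9%. The STAT motif TTCNNNGAA matched in that of Dusp14 alone among the members and in 7.02% of all. GGGCGG, the GC box, matched in 7 member windows and in 32.7% of all, and the windows of Dusp6 and Dusp7 held none of the motifs searched. A match is a description of letters and no measured binding.

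Dusp1, which encodes the nuclear phosphatase MKP-1, rose under both treatments. With LPS, its signal in experiments 1, 2 and 3 was 5218.9, 4308.3 and 3097.8 at 10 min. At 20 min it was 9897.8, 10594.9 and 10629.4, and at 30 min 13262.5, 17092.8 and 11367.8. No value at a later time overlapped with one at an earlier time. Under the combination the corresponding signals were 5443.3, 4587.1 and 3140.2 at 10 min, 8911.4, 10073.3 and 7151.3 at 20 min, and 14222.0, 16807.3 and 11468.2 at 30 min. Here, too, the 3 times did not overlap, and in every experiment Dusp1 was higher at 30 than at 20 and at 20 than at 10 min.

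From 10 to 30 min of LPS, Dusp1 rose 3.32-fold, a log2 difference of 1.73 with an SE of 0.23 (95% interval 1.24 to 2.22, n = 3 arrays per group, limma, adjusted p = 0.00979). All log2 differences here are of log2(signal + 16). It was the only 1 of 14 member probe sets called, in a comparison that called 0.0184% of all 27110 probe sets tested. The combination gave a rise of 3.26-fold, a log2 difference of 1.71 (1.22 to 2.19, adjusted p = 0.00447 in limma), again 1 of 14, against 0.0443% of all. When the experiment was kept as a block, so that times were compared within an experiment, the adjusted p values were 3.27e-06 with LPS (0.111% of all called) and 2.40e-06 with the combination (0.225%). Without the block, Dusp1 was not called on leaving out experiment 1 (adjusted p = 0.618 with LPS and 0.268 with the combination) or experiment 2 (1.00 and 1.00). With the block, it was called on leaving out any of the 3, with adjusted p of at most 0.0114.

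Much of the rise was in place by 20 min. The share of the 10 to 30 min rise reached at 20 min was 58.2%, 49.2% and 91.1% in the 3 experiments with LPS, and 39.5%, 44.9% and 48.2% with the combination. The 49.2% and the 91.1% came from the arrays of LPS at 20 min that stood apart. Averaged over both treatments, Dusp1 rose 2.25-fold from 10 to 20 min, a log2 difference of 1.17 with an SE of 0.16 (limma, adjusted p = 0.0158, and 9.62e-06 with the block), 1 of 14 against 0.0221% of all probe sets, and 0.059% with the block. Leaving out experiment 1, 2 or 3 the adjusted p was 0.293, 1.00 and 0.154 without the block and at most 0.0156 with it. Leaving out both arrays that stood apart, the difference was 1.14 and the adjusted p 0.270, and 1.06 and 0.000317 with the block. Within each treatment the 20 min rise was called only with the block, at 1.33 with LPS (adjusted p = 0.000953) and 1.01 with the combination (0.00779), in comparisons that called 0.0148% and 0.0332% of all. Without the block the adjusted p values were 0.362 and 1.00, and the LPS comparison called 0 probe sets, with 899 at an unadjusted p under 0.05. That of the combination called 0.0111% of all. Without both arrays that stood apart, the LPS difference was 1.26 (adjusted p = 0.650), and 1.12 with the block (0.0322). Leaving out experiment 2, the blocked adjusted p was 0.154 with LPS and 1.00 with the combination, and leaving out experiment 1 it was 0.0888 with the combination. From 20 to 30 min the log2 difference was 0.40 with LPS (0.47 without both arrays, and 0.61 with the block) and 0.70 with the combination, and neither passed in either fit, in comparisons that called 0% of all without the block and 0.0184% with it.

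**Figure D1:**
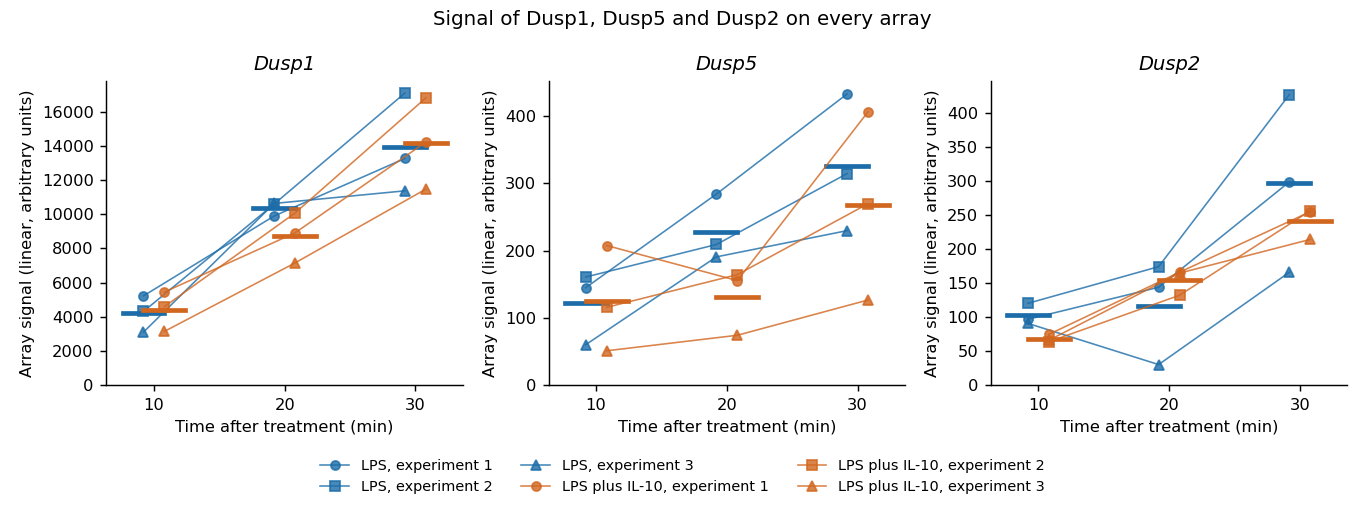
Array signal of Dusp1, Dusp5 and Dusp2 (linear scale from 0, arbitrary units) against time after treatment in minutes, with 1 point per array, lines joining the arrays of an experiment and thick bars at the mean of 3 arrays. Dusp1 climbed from 3097.8 to 5443.3 at 10 min to 11367.8 to 17092.8 at 30 min, and the lowest Dusp2 value is the LPS array of experiment 3 at 20 min.

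Dusp5 encodes a nuclear phosphatase selective for ERK. With LPS its signals in experiments 1, 2 and 3 were 144.8, 160.7 and 60.0 at 10 min, 284.1, 209.1 and 190.7 at 20 min, and 433.1, 314.6 and 229.7 at 30 min. Each experiment climbed at each step, and the 10 min arrays lay below all later ones. The combination gave 207.6, 115.6 and 51.0 at 10 min, 155.4, 164.3 and 74.1 at 20 min, and 406.6, 269.8 and 126.6 at 30 min. Here experiment 1 was lower at 20 than at 10 min, and the 10 and 30 min groups overlapped, with experiment 3 lowest at each time. The signals of 60.0, 51.0 and 74.1, all of experiment 3, were below the array's median.

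With the experiment as a block, Dusp5 rose 2.57-fold from 10 to 30 min of LPS, a log2 difference of 1.36 with an SE of 0.25 (limma, adjusted p = 0.0326). This made 2 of 14 member probe sets called, against 0.111% of all in that fit. Without the block the same difference had an SE of 0.47 and an adjusted p of 1.00. With the combination the difference was 1.04 and did not pass (adjusted p = 0.144 with the block). Averaged over both treatments it was 1.20, higher in 6 of 6 pairs of arrays from 1 experiment, with an adjusted p of 0.697 without and 0.00144 with the block. The blocked LPS call was lost on leaving out any experiment (adjusted p = 0.889, 0.321 and 0.220 without experiments 1, 2 and 3). The blocked average was lost without experiment 1 (0.134) or 2 (0.0613).

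Dusp2 encodes a nuclear phosphatase found mainly in immune cells, also known as PAC-1. Its signals in experiments 1, 2 and 3 were 96.8, 120.3 and 90.8 at 10 min of LPS, 144, 174.3 and 30.2 at 20 min, and 299.1, 427.6 and 166.1 at 30 min. The value of 30.2 was the lowest of all 18 and came from an array that stood apart. Signals with the combination were 74.6, 63.7 and 65.9, then 166.1, 132.2 and 164.8, then 255.2, 256.7 and 214.4. These 3 times did not overlap, and the 10 min and 30 min groups did not overlap with LPS either. Dusp2 reached the array's median on 13 of the 18 arrays, and on none of the combination at 10 min.

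Averaged over both treatments, Dusp2 was 2.76-fold higher at 30 than at 10 min, a log2 difference of 1.47 with an SE of 0.30, in 6 of 6 pairs of arrays. The adjusted p in limma was 0.128 without the block and 0.00603 with it. In this comparison Dusp1 alone was called without the block (adjusted p = 5.64e-05, and 0.142 without experiment 2; 0.059% of all called), and Dusp1, Dusp2 and Dusp5 with it, 3 of 14 against 0.435% of all. Within the treatments the Dusp2 difference was 1.32 with LPS (adjusted p = 0.455 with the block) and 1.62 with the combination (0.0793). The blocked average was not called without experiment 1 (adjusted p = 0.443) or 2 (0.271), and its adjusted p was 0.000843 without experiment 3. At 20 min of LPS the log2 difference from 10 min was -0.07, 0.56 without the LPS 20 min array of experiment 3, and 0.44 without both arrays that stood apart (0.37 with the block). With the combination it was 1.01. Neither passed.

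Over all tested probe sets of the family, 11 of 14 were higher at 30 than at 10 min of LPS, with a median log2 difference of 0.12, beside 45.3% of all probe sets and a median of -0.02. Under the combination, 10 of 14 were higher, with a median of 0.14, beside 43.9% of all probe sets and a median of -0.03. All arrays of 30 min of LPS lay above all of 10 min for 3 of 14 (Dusp1, Dusp2 and Dusp5), beside 2.03% of all probe sets. With the combination this held for 2 of 14 (Dusp1 and Dusp2), beside 2.21%. From 10 to 20 min it held for Dusp1 and Dusp5 with LPS (3.42% of all) and for Dusp1 and Dusp2 with the combination (2.47%). From 20 to 30 min it held for Dusp1 with LPS (2.92%) and for Dusp1 and Dusp2 with the combination (1.81%). Without both arrays that stood apart, 1 array of LPS at 20 min was left. It lay above those of 10 min for 11 of 14, among them Dusp1 and Dusp5, beside 21% of all, and below them for 0 (26.5%). It lay below those of 30 min for 3 of 14 (Dusp1, Dusp2 and Dusp6), beside 25.6%. For 8 of 14, of Dusp3, Dusp4, Dusp7, Dusp10 and Dusp16, it lay above those of 30 min, beside 24.6%. The 1 array left is of experiment 1, in which Dusp10 and the brighter Dusp16 probe set were highest in all 6 groups. These counts therefore cannot tell time from experiment. The counts without these arrays were added after the values had been seen. With all arrays, no member probe set had all its later arrays below the earlier ones in these 6 comparisons. Of all probe sets 3.42%, 2.64% and 4.7% did with LPS, for 30 against 10, 20 against 10 and 30 against 20 min, and 4.36%, 2.28% and 3.52% with the combination.

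**Figure D2:**
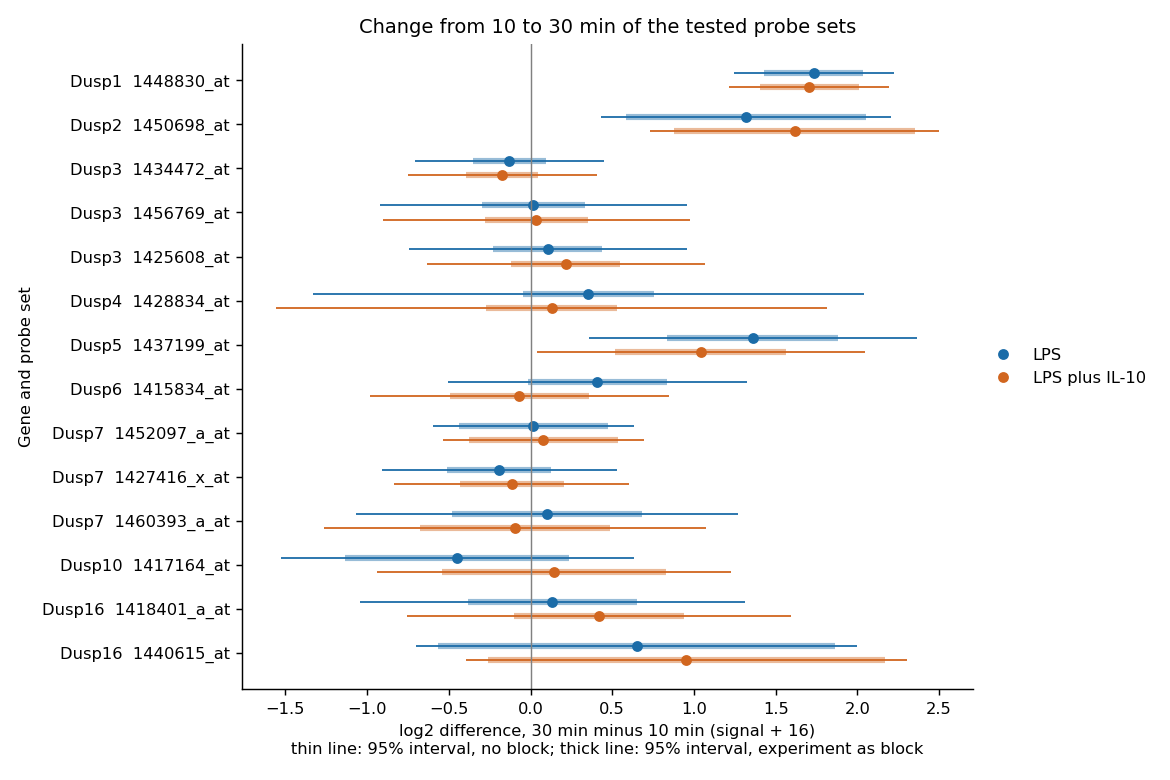
Log2 difference of signal + 16 between 30 and 10 min for the 14 tested probe sets, under LPS and LPS plus IL-10, with 95% intervals from the fit without the block (thin) and with the experiment as a block (thick). Dusp1, Dusp2 and Dusp5 lie between 1.04 and 1.73, and the thin intervals of all other probe sets include 0.

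Dusp4, which encodes the inducible nuclear phosphatase MKP-2, did not pass in any comparison over time. Its signals in experiments 1, 2 and 3 were 2163.3, 1233.5 and 439.4 at 10 min of LPS, 2499.8, 1610.1 and 446.6 at 20 min, and 1959.1, 2443.2 and 517.2 at 30 min. The combination arrays read 2225.9, 1158.1 and 634.1, then 2274.9, 1573.0 and 469.0, then 2221.7, 1775.6 and 541.2. Experiment 3 was the lowest in all 6 groups. From 10 to 30 min of LPS the log2 difference was 0.35, with a blocked 95% interval of -0.05 to 0.76. Within the experiments it was -0.14, 0.98 and 0.23.

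Dusp6 encodes MKP-3, the cytoplasmic phosphatase of ERK. With LPS its signals were 845.5, 474.6 and 1149.4 at 10 min, 523.6, 644.3 and 1018.7 at 20 min, and 694.9, 792.5 and 1991.6 at 30 min. Under the combination they were 793.9, 506.1 and 1103.9, then 619.2, 760.3 and 1048.6, then 586.2, 550.6 and 1183.5. The highest signal, 1991.6, was that of LPS at 30 min in experiment 3. The change from 10 to 30 min was 0.41 with LPS (blocked interval -0.02 to 0.83) and -0.07 with the combination (-0.49 to 0.35). Neither passed, and experiment 1 went down in both.

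Dusp7, a close relative of Dusp6, was read by 3 tested probe sets. The brightest ranged from 277.9 to 615.4 over the 18 arrays, and its change from 10 to 30 min was 0.02 with LPS (blocked interval -0.44 to 0.47) and 0.08 with the combination (-0.38 to 0.53). The other 2 probe sets changed by -0.19 and 0.10 with LPS, so the 3 did not share a direction, and none passed.

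Dusp16 and Dusp10 encode phosphatases of JNK and p38. The brighter Dusp16 probe set read 831.5, 398.5 and 170.4 in the 3 experiments at 10 min of LPS, 1001, 599.1 and 584.1 at 20 min, and 597.1, 553.1 and 231.3 at 30 min. Under the combination it read 626.2, 335.8 and 341.1, then 1016.2, 536.3 and 236.9, then 895.1, 544.0 and 361.4. With LPS each experiment was highest at 20 min, with a log2 difference from 10 min of 0.84 (blocked interval 0.32 to 1.36, adjusted p = 0.400 with the block in limma). Without both arrays that stood apart the difference was 1.34, and 0.58 with the block. Under the combination it was 0.28 with all arrays, and experiment 3 was lower at 20 than at 10 min. The second Dusp16 probe set was dim, at 4.4 to 84.2, and reached the median on 3 arrays, all of them with IL-10. Its log2 difference from 10 to 20 min of LPS was -0.14.

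The tested Dusp10 probe set read 250.3, 146.4 and 99.7 at 10 min of LPS, 356.4, 53.9 and 122.5 at 20 min, and 165.3, 98.4 and 79.1 at 30 min. It fell short of any call, with a log2 difference of -0.45 from 10 to 30 min of LPS (blocked interval -1.13 to 0.24) and 0.14 with the combination. Its 30 min LPS arrays were each below the 10 min array of their experiment, but the groups overlapped. The other Dusp10 probe set, at 4.9 to 107.7, did not reach the median on any array and was not tested.

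The atypical members gave no call or were too dim to test. Dusp3, which encodes the ERK and JNK phosphatase VHR, was read by 3 tested probe sets. The brightest ranged from 2179.2 to 4489.4, with changes from 10 to 30 min of -0.13 with LPS and -0.17 with the combination and blocked intervals within -0.40 and 0.09. The other 2 changed by 0.02 and 0.10 with LPS. Dusp14 was read by 1 probe set at 9.5 to 102.8, which reached the median on 2 arrays and was not tested.

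No difference between LPS plus IL-10 and LPS passed the test for any member. In the comparisons at 10, 20 and 30 min, averaged over the times, and of its effect at 30 against 10 min, 0 of 14 member probe sets were called by limma in either fit. These comparisons called 0%, 0.00738%, 0.0111%, 0.0111% and 0.00369% of all probe sets without the block. At an unadjusted p under 0.05 there were 309, 815, 314, 423 and 266 probe sets, and 0 member probe sets in any. With the block they called 0%, 0.0184%, 0.0443%, 0.0332% and 0.0184%. The probe sets at an unadjusted p under 0.05 were then 970, 2118, 763, 1141 and 663 of all 27110. Among the 14 member probe sets they were 0, 1, 1, 1 and 0. No member probe set had all arrays with IL-10 above all with LPS at 10, 20 or 30 min, beside 2.07%, 1.89% and 2.05% of all. At 30 min none had all of them below, beside 2.76% of all.

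For Dusp1, LPS plus IL-10 minus LPS was 0.06 at 10 min (95% interval -0.43 to 0.55), -0.26 at 20 min (-0.75 to 0.22) and 0.03 at 30 min (-0.46 to 0.52). With the block the 30 min interval was -0.27 to 0.33. At 20 min all 3 experiments were lower with IL-10, by 0.15, 0.07 and 0.57 on the log2 scale, and the values of the groups overlapped. Leaving out both 20 min LPS arrays that stood apart, the difference at 20 min was -0.20, and -0.06 with the block. The rise from 10 to 30 min differed between the treatments by -0.03 (-0.72 to 0.66).

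Dusp5 at 20 min was the only member whose groups did not overlap at that time. All 3 arrays with IL-10 (155.4, 164.3 and 74.1) lay below all 3 with LPS alone (284.1, 209.1 and 190.7), which held for 1 of 14 member probe sets and 3.01% of all. The log2 difference was -0.78, with an interval of -1.78 to 0.23, and of -1.30 to -0.25 with the block, where the adjusted p was 0.578. Within the experiments it was -0.81, -0.32 and -1.20. Without the arrays of LPS at 20 min that stood apart in experiments 2 and 3, it was -1.09 (adjusted p = 0.935 in limma), and -0.58 with the block (0.936). The arrays with IL-10 then lay below the 1 array left for 8 of 14, Dusp5 among them, beside 19.6% of all, and above it for Dusp6, beside 23.2%. As that array is of experiment 1 alone, these counts cannot tell IL-10 from experiment. At 30 min Dusp5 was lower by 0.36 with an interval of -1.36 to 0.64.

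Dusp2 went both ways. At 10 min its arrays with IL-10 (74.6, 63.7 and 65.9) lay below those with LPS (96.8, 120.3 and 90.8), which held for 2.61% of all probe sets. Its signals with IL-10 were then all below the array's median. The log2 difference at 10 min was -0.49 (-1.38 to 0.39). At 20 min the difference was 0.60 (-0.29 to 1.48), and 1.97 in experiment 3, where the LPS array read 30.2. Without that array it was -0.04, and without both arrays that stood apart 0.08 (0.15 with the block). At 30 min it was -0.19 (-1.08 to 0.69). For Dusp6 at 30 min all experiments were lower with IL-10, by 0.24, 0.51 and 0.74, with a mean of -0.50 (-1.41 to 0.42, and -0.92 to -0.07 with the block, where the adjusted p in limma was 1.00). The effects on Dusp3, Dusp4, Dusp7, Dusp10 and Dusp16 lay between -0.46 and 0.50 at the 3 times for their brightest probe sets. The dim Dusp16 probe set was at 0.85 at 20 min. None passed. That dim probe set had entered the test only through arrays with IL-10, so the filter itself favoured a positive difference. The values at 20 min moved widely without both arrays that stood apart. Without the block, this sets the LPS array of experiment 1 against arrays with IL-10 from all 3 experiments. Such a value also carries the differences between experiments and cannot be read as an effect of IL-10 alone. Within experiment 1, Dusp4 at 20 min read 2499.8 with LPS and 2274.9 with the combination. Dusp4 went from -0.03 to -1.06 (-0.23 with the block), and Dusp16 from -0.46 to -0.96 (-0.21). Dusp10 turned from 0.27 to -1.01 (-0.49), Dusp7 turned from 0.02 to -0.46 (-0.24), and the dim Dusp16 probe set turned from 0.85 to -0.36 (0.04). Dusp3 went from -0.04 to -0.01 (0.01).

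**Figure D3:**
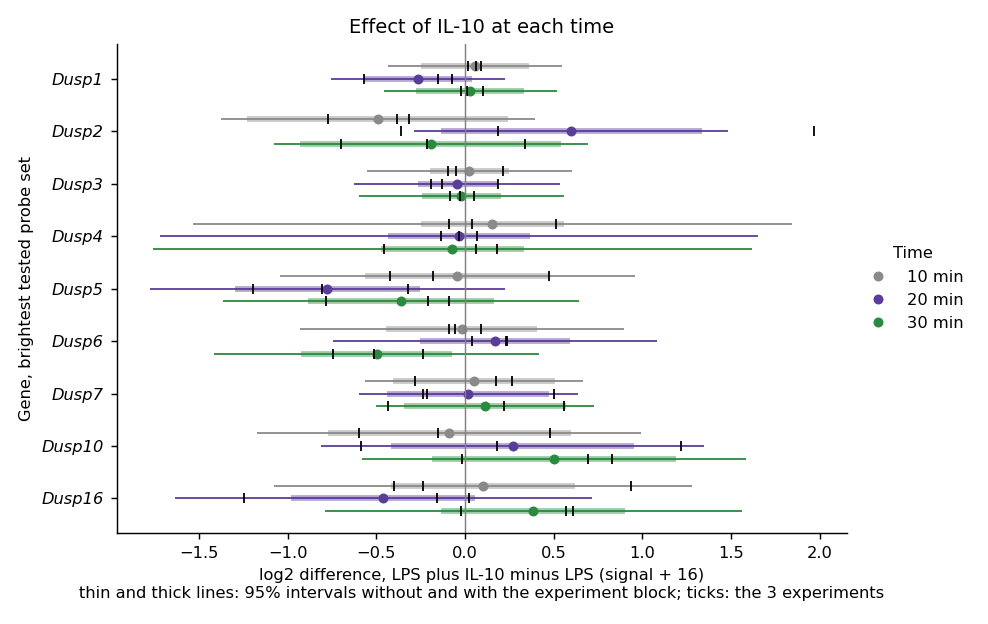
Log2 difference of signal + 16 between LPS plus IL-10 and LPS at 10, 20 and 30 min for the brightest tested probe set of 9 genes, with 95% intervals without (thin) and with (thick) the experiment block and a tick for each experiment. All thin intervals include 0, and the tick at 1.97 is Dusp2 at 20 min in experiment 3.

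For most members the largest differences were between the 3 experiments and not between times or treatments. This was looked at after the values had been seen. The experiments differed for 12 of 14 member probe sets by limma's moderated F-test, in a comparison that called 51.6% of all. The median share of the variance of log2 signal that lay between experiments was 69.1% in the family and 37.9% over all probe sets, and the share between the 6 groups was 9.72% and 18.5%. Dusp1 was at the other end, with 6.58% between experiments and 89.7% between groups, followed by Dusp2 with 11.2% and 68.7% and Dusp5 with 38.7% and 53.0%.

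Dusp4 held 93.6% of its variance between experiments and 1.41% between groups. Its median signal was 2223.8, 1591.55 and 493.1 in experiments 1, 2 and 3, and its mean log2 signal was lower in experiment 3 than in experiment 1 by 2.10. Dusp16 had medians of 863.3, 540.15 and 289, and 67.8% between experiments. Dusp10 was highest in experiment 1 in all 6 groups, with medians of 240.95, 114.2 and 130.15. Dusp6 went the opposite way: its medians were 657.05, 597.45 and 1126.65, and experiment 3 was highest in all 6 groups. The 3 Dusp3 probe sets were lowest in experiment 3 in all 6 groups, but the brightest was highest in experiment 2 and the other 2 mostly in experiment 1. Between experiments the summed granulocyte markers also differed, with medians of 7343.05, 12344.8 and 5997.3, as did the macrophage markers with 137183, 164782 and 150190. Their part in these differences was not tested.

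**Figure D4:**
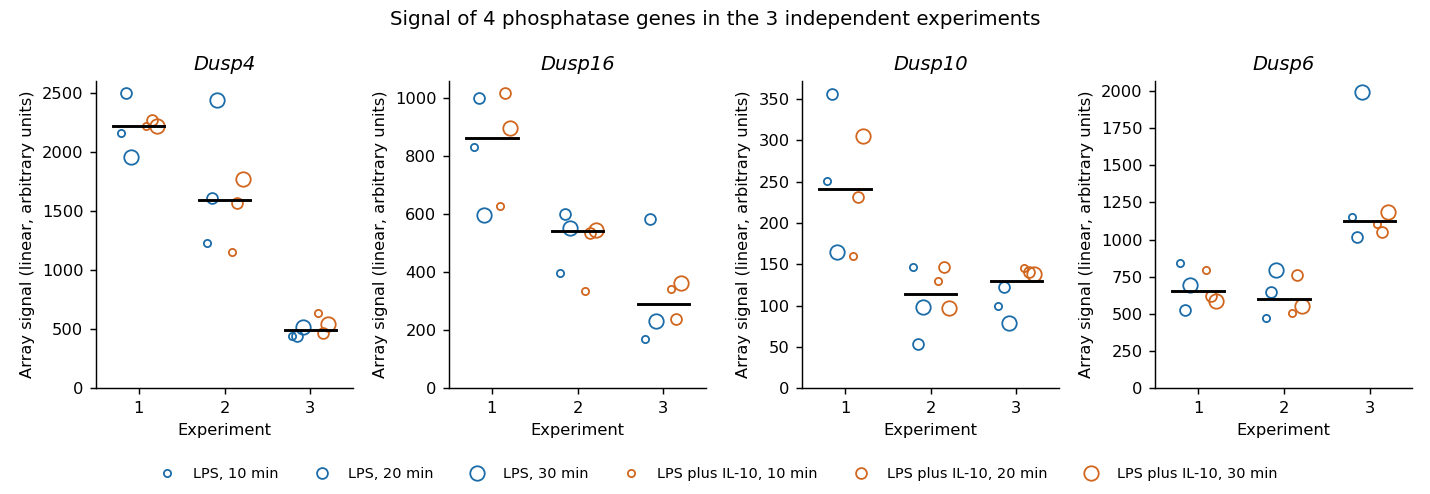
Array signal of Dusp4, Dusp16, Dusp10 and Dusp6 (linear scale from 0, arbitrary units) in the 3 experiments, with 1 circle per array, colour for treatment, circle size for time and a black bar at the median of 6 arrays. Experiment 3 is lowest for Dusp4 (median 493.1) and highest for Dusp6 (median 1126.65).

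Other genes of the pathway were counted as lists. From 10 to 30 min, averaged over both treatments, 0 of 21 tested other dual-specificity phosphatase genes, 0 of 24 MAP kinases and activators, 0 of 18 kinases and factors downstream and 0 of 16 other negative regulators were called without the block, beside 0.059% of all probe sets. Of these 8, 10, 8 and 9 were higher, beside 43.3% of all probe sets. With the block 3 genes rose, 0 of 21, 0 of 24, 2 of 18 and 1 of 16 in these lists, beside 0.435% of all probe sets called. These were Fos and Jun, the AP-1 subunits, by 0.74 (adjusted p = 0.00249 in limma, and 0.421 without the block) and 0.66 (0.00277, and 1.00), and Zfp36, which encodes the mRNA decay factor tristetraprolin, by 1.33 (8.90e-08, and 0.0663 without the block). Zfp36 signals were 3123.3 ± 966.0 at 10 and 6863 ± 2365 at 30 min of LPS, and 3379.1 ± 976.6 and 9736 ± 2240 with the combination (SD, n = 3). Map3k8, the kinase that activates the ERK pathway after LPS, was at 0.50 and did not pass (adjusted p = 0.0893 with the block). In these lists IL-10 changed no gene by the test in either fit.

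The genes whose log2 signal over the 18 arrays was most like that of Dusp1 were Cxcl2 (Pearson r = 0.98), Cxcl1 (0.90), Ier3 (0.88), Ccl3 (0.87) and Ptgs2 (0.83). For Dusp5 they were Nfkbiz (0.90), Tnf (0.85), Ptgs2 (0.85), Ppp1r15a (0.84) and Phlda1 (0.84), and for Dusp2 Zfp36 (0.81), Ccl3 (0.80), Tpp2 (0.79), Ppp1r15a (0.79) and Tnfsf9 (0.79). Between members r was 0.79 for Dusp1 with Dusp5, 0.68 for Dusp1 with Dusp2, 0.82 for Dusp4 with Dusp16, -0.77 for Dusp3 with Dusp6 and -0.72 for Dusp4 with Dusp6. These are descriptions over 18 arrays that share 6 groups and 3 experiments.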

How the data were processed

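RNA of bone marrow-derived macrophages was measured on 18 single-colour Affymetrix arrays, 6 groups of 3. The authors deposited 1 linear intensity per probe set and array. The submitters' processing notes name GCOS 1.4 but no signal algorithm. The mean after trimming 2% of probe sets at each end was 500.003 to 500.004 on every array, which removes any change in total RNA. Low signals could not be separated from background, since detection calls were not used here. No more than 104 values were equal in any pair of arrays.

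Symbols came from GEO's platform annotation and may be outdated. Among the probe sets, 34958 had 1 symbol, 932 several and 9211 none. No member probe set had several, and all 10 member symbols were in the RefSeq gene table. The 64 control probe sets were left out. Values were analysed as log2(signal + 16), which understates changes of dim probe sets. The 27110 probe sets at or above the array median on at least 3 arrays were fitted together with limma 3.58.1 in R 4.3.3 (lmFit, eBayes with an intensity trend), leaving 12 residual degrees of freedom. P-values are two-sided and were adjusted by Benjamini-Hochberg over all tested probe sets, with a threshold of 0.05, in 13 comparisons. Precision was limited by 3 arrays per group. The fit was tested on simulated data with independent noise on each array and no differences between experiments. That test therefore cannot speak for the choice between the fits with and without the block.

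The labels make each replicate number a complete experiment. Deviations from group means correlated at 0.20 to 0.64 (median 0.46) in 45 pairs of arrays with the same number and at -0.47 to 0.0651 in 90 pairs with different numbers. The numbers therefore pair the samples, and the fit with the experiment as a block (10 residual degrees of freedom) is given wherever it changes a call. The fit without it, written down as the main one, counts differences between experiments as spread.

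All member probe sets are named, and a gene is represented by its brightest tested probe set. From the other lists, called genes or up to 3 with the largest change are named, and for each called member the 5 most like genes. The members and lists were chosen with earlier results of these data known. Motifs were searched in Python 3.11.15. As alternatives, arrays were quantile-normalised, the pseudocount was set to 1 or 64, and the filter was dropped or raised to the 75th percentile. The rest were the block, a fit on only the arrays compared, no intensity trend, and leaving out each experiment or the arrays that stood apart.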

Additional observations from a re-analysis of the deposited data

How the results depend on the processing

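No value called in the fit without the block or under an alternative run turned its sign. Counts of member probe sets called matched those of the fit without the block under quantile normalisation and pseudocounts of 1 and 64. So did those without the filter and with the filter at the 75th percentile. However, the filter at the 75th percentile removed some dim probe sets, Dusp2 and Dusp5 among them, and so could not test those. With the experiment as a replicate block the counts were 2 (against 1) for 30 against 10 min of LPS, 1 (against 0) for 20 against 10 min of LPS, 1 (against 0) for 20 against 10 min of LPS plus IL-10, and 3 (against 1) for 30 against 10 min over both treatments. The block changed no other call of a member. A fit on only the arrays compared gave 0 for 30 against 10 min of LPS, 0 for the same of LPS plus IL-10, 0 for 20 against 10 min over both treatments and 2 for 30 against 10 min over both. It uses fewer arrays. Without an intensity trend the counts were 0 for 30 against 10 min of LPS and 0 for 20 against 10 min over both treatments, and the cause was not tested. Leaving out each experiment, they were 0 to 1 for 30 against 10 min under each treatment, 0 for 20 against 10 min over both and 0 to 2 for 30 against 10 min over both. With the block and 1 experiment left out they were 0 to 1 for 20 against 10 min under each treatment, 1 for 30 against 10 min of LPS, 1 to 2 for 30 against 10 min of LPS plus IL-10, and 1 to 3 for 30 against 10 min over both. For 20 against 10 min over both treatments, the count was 0 without the LPS 20 min array of experiment 2 and 0 without those of experiments 2 and 3. With the block and without those 2 arrays, 20 against 10 min gave 1 under LPS and 1 under LPS plus IL-10. Of 2809 values of single probe sets under an alternative, 2484 kept their direction and their side of the threshold, 15 gained a call, 15 lost one, and 295 turned sign, with 0 of these called in either fit. IL-10 effects gave 0 calls in the family under every alternative run. Signals near background limit what can be said of Dusp14 and of the dimmer probe sets of Dusp10 and Dusp16.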
